A study of Mus musculus with 12 samples.

Results

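Myl7, Myl4, Sln and Mybphl are genes of the contractile and calcium-handling machinery of atrial heart muscle cells, and their transcript levels were followed here in the left ventricle of the mouse. The 4 genes were taken by symbol from the platform annotation, out of 18194 genes with a probe set listed for 1 symbol, and all 4 were among the 11624 genes bright enough to be tested. Each is represented by its brightest probe set, and Myl4 and Sln have a dimmer one that served as a check. The genes were picked from their values on these same arrays, in particular 1 week after myocardial infarction, so their levels and ratios are a description and carry no test.

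The arrays hold biotin-labelled RNA from the left ventricle of Balb/c mice aged 6 to 8 weeks. The 12 arrays fall into 6 procedures and the control of each, with 1 array in every group. Transverse aortic constriction (TAC), in which the aorta is narrowed with a ligature so that the ventricle pumps against a raised pressure, was sampled at 1 day, 1 week and 1 month, each with a sham operation of its own. Myocardial infarction (MI), by ligation of the left coronary artery, was sampled at 1 week and 1 month, each with a sham. The study's description gives the coronary occlusion as temporary and followed by reperfusion, while the array labels name the ligation only. Angiotensin II (Ang II), a peptide hormone that raises blood pressure, was given at 2 mg/kg/day for 1 week. Its control is labelled only as a control, and the description says that control mice had saline from an osmotic minipump. The number of animals behind an array is not given in the sources used here. No group has a second array, so the p-values rest on the spread of the ratio over the 6 pairs. That spread holds differences between procedures and times, and part of it may be technical. All groups share strain and tissue, and none carries a genetic change.

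Atrial and ventricular muscle cells build the same kind of sarcomere from partly different parts. In the atria, Myl7 and Myl4 supply the regulatory and the essential light chain of myosin, where the ventricle uses Myl2 and Myl3. Sarcolipin, the product of Sln, is a small membrane protein that inhibits the calcium pump SERCA, a role held in the ventricle by phospholamban (Pln). Mybphl encodes a relative of cardiac myosin-binding protein C (Mybpc3) and is known for its expression in the atria and the conduction system. Myl7 and Myl4 are widely expressed in the embryonic heart and become restricted largely to the atria as the ventricle matures.

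The regions upstream of the start sites are shown as a description, since the 4 genes were selected for a shared pattern on these arrays. RefSeq sequences in build GRCm38.p6 were found for 3 of the 4 genes, Myl7 at chr11:5898783-5899032 on the minus strand, Myl4 at chr11:104550413-104550662 on the plus strand and Mybphl at chr3:108364661-108364910 on the plus strand. Each is the 250 bases before the start site, 5′ to 3′ on the strand of the gene. Capitals mark matches, on either strand, to motifs of factors that act in heart muscle, namely the GATA factor site (GATA preceded by A or T and followed by A or G), the TBX5 core (GGTGT), the NKX2-5 core (AAGTG), the MEF2 site and the CArG box.
Myl7: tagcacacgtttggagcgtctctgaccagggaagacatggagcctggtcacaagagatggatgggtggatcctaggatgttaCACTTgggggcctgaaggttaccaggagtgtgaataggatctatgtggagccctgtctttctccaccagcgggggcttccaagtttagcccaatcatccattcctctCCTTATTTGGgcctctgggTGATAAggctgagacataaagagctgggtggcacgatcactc
Myl4: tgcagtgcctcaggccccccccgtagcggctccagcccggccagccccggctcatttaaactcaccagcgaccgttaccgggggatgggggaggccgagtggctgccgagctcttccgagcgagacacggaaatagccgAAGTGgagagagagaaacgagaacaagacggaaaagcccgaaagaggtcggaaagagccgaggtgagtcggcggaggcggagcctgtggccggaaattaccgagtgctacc
Mybphl: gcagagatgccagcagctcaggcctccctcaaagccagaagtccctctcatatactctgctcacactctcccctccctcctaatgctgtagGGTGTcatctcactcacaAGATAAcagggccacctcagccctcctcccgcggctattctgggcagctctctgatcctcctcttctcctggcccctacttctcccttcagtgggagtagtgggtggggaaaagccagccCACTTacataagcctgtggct
Counted from the start site, the Myl7 sequence had a GATA match beginning at -42, a CArG box at -61 and an NKX2-5 core at -168. The Mybphl sequence had an NKX2-5 core at -21, a GATA match at -141 and a TBX5 core at -159. In the Myl4 sequence an NKX2-5 core at -111 was the match found, and 63.6% of its bases were G or C, against 52.8% for Myl7, 57.2% for Mybphl and a median of 52.4% over 32536 promoters. No marked motifs overlapped one another. Among all promoters of this length, 40.6% held the NKX2-5 core, 36.3% the TBX5 core, 26.5% a GATA match, 2.89% the MEF2 site and 1.48% a CArG box. The NKX2-5 core was the motif present in all 3 sequences, and it is also the most frequent of these motifs among all promoters. These matches describe letters and were not tested as binding sites.

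All 4 atrial genes were far higher on the MI 1 week array than on any other. The log2 ratio of procedure to control ran from 2.72 for Myl4 to 3.52 for Sln, that is from 6.58-fold to 11.5-fold, with a median over the 4 genes of 2.84, against 0.019 for the median of all genes tested. All 4 met the 2-fold criterion (a log2 ratio of at least 1 in size, the brighter signal above the median of all arrays and the procedure array outside the range of the 6 controls), which 6.12% of all genes tested met in the higher direction in this pair. Since the genes were chosen from this pair, the count is given as a description. Signals are the deposited probe-set intensities after scaling of the arrays to a common trimmed mean, and they compare arrays for 1 probe set but not different probe sets.

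Myl7, the regulatory light chain of atrial myosin, had a scaled signal of 3756 on the MI 1 week array and 502 on its sham. At 1 month after MI the signals were 985 and 370.4. In the TAC series, procedure and sham had 470.3 and 534 at 1 day, 907 and 416 at 1 week, and 563 and 389.9 at 1 month. With Ang II the signal was 1029, and its control had 838. The MI 1 week array was therefore the brightest, the Ang II array came next, and the TAC 1 day array was the procedure array that lay below its sham. The procedure arrays of TAC 1 week, MI 1 week, MI 1 month and Ang II lay above all 6 controls, which spanned 370.4 to 838. The log2 ratios were 2.90 and 1.41 for MI at 1 week and 1 month, -0.18, 1.12 and 0.53 for TAC at 1 day, 1 week and 1 month, and 0.30 for Ang II. Their mean was 1.01 ± 1.09 (SD, 6 pairs), and 0.64 without the MI 1 week pair.

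Myl4, the essential light chain of atrial and embryonic myosin, had a signal of 3110.3 on the MI 1 week array and 473 on its sham. One month after MI the signals were 871 and 413. For TAC they were 509.9 and 494 at 1 day, 799 and 436 at 1 week, and 614 and 476 at 1 month. The 5 shams lay close together, from 413 to 494, and each of the 6 procedure arrays was above them. The Ang II array, at 966, differed little from its own control at 939, which stood above the shams as well, so that on the full range of controls the MI 1 week and Ang II arrays were those outside it. The log2 ratios were 2.72 and 1.08 for MI, 0.05, 0.87 and 0.37 for TAC in order of time, and 0.04 for Ang II. Their mean was 0.85 ± 1.01 (SD, 6 pairs), and 0.48 without the MI 1 week pair. The near-zero TAC 1 day ratio of Myl4 was -0.12 when signals were used as deposited.

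Sln, whose product restrains the SERCA pump, had the largest ratio of the 4 genes at MI 1 week, with a signal of 1858 against 162 on the sham. One month after MI the signals were 369 and 163. TAC gave 269 and 193 at 1 day, 376 and 156 at 1 week, and 323 and 160.5 at 1 month. Ang II gave 493 and its control 275. Sln was higher than the control in all 6 pairs, and 4 of the 5 shams lay within a narrow band from 156 to 163, with the TAC 1 day sham at 193. Outside the range of all 6 controls were TAC 1 week, TAC 1 month, MI 1 week, MI 1 month and Ang II, but not TAC 1 day. The log2 ratios were 3.52 and 1.18 for MI, 0.48, 1.27 and 1.01 for TAC, and 0.84 for Ang II, with a mean of 1.38 ± 1.09 (SD, 6 pairs) and 0.95 without the MI 1 week pair.

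Mybphl, the myosin-binding protein H-like gene, was measured at the dim end of the scale. Its signal was 213 on the MI 1 week array and 31.1 on the sham, and 46.7 and 19.1 at 1 month. In the TAC series it was 15.9 and 28.3 at 1 day, 52.8 and 30.6 at 1 week, and 43.0 and 30.2 at 1 month. With Ang II it was 59.8, and 49.3 on the control. The TAC 1 day array lay below all 6 controls, and TAC 1 week, MI 1 week and Ang II lay above them. The log2 ratios were 2.78 and 1.29 for MI, -0.84, 0.79 and 0.51 for TAC, and 0.28 for Ang II, with a mean of 0.80 ± 1.20 (SD, 6 pairs) and 0.41 without the MI 1 week pair. Its lowest signal, 15.9, was under the limit of 18.1 set for the mean of a tested gene.

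**Figure D1:**
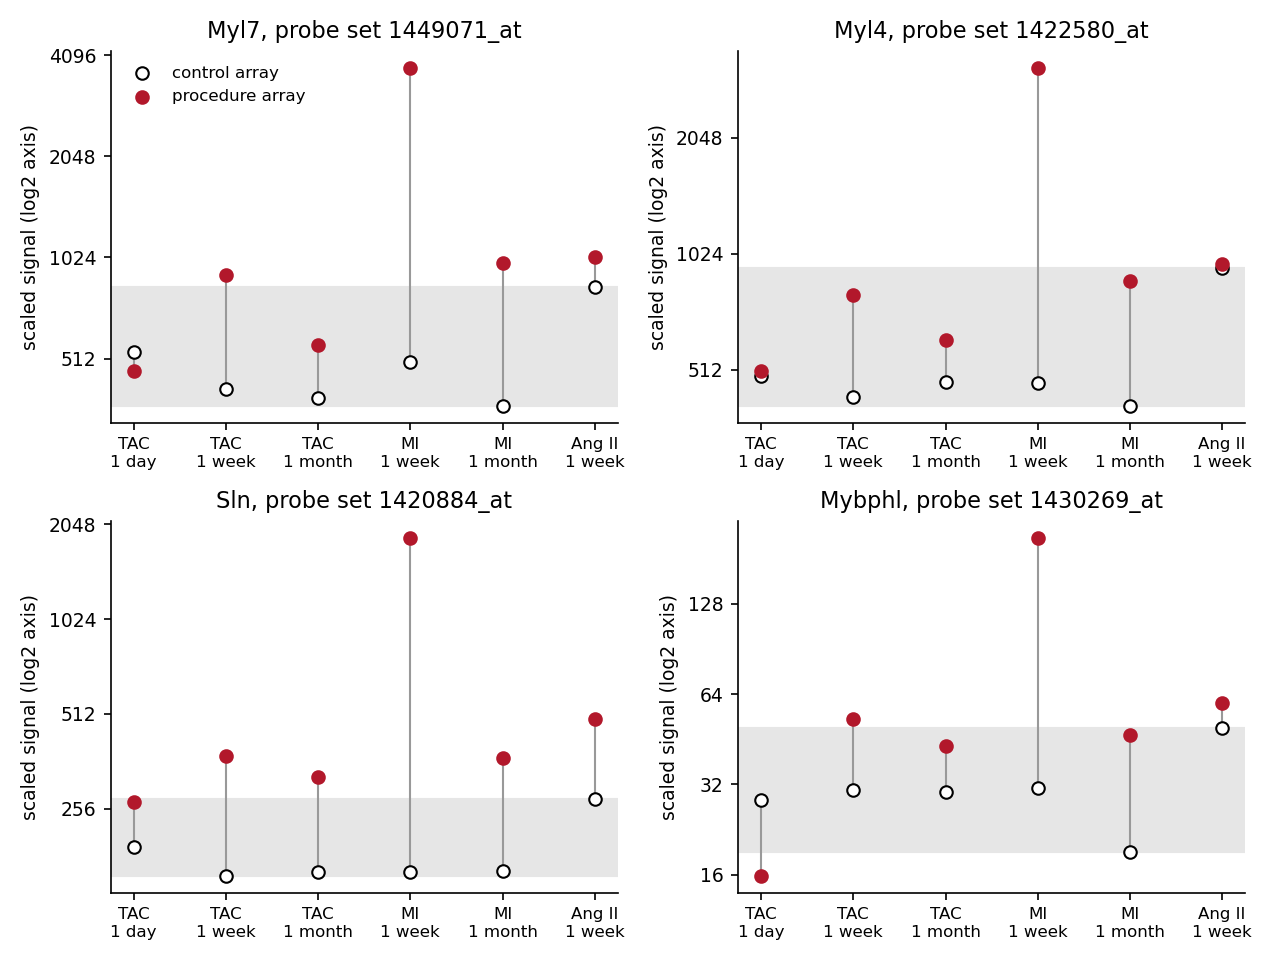
Scaled signal (log2 axis) of the brightest probe set of Myl7, Myl4, Sln and Mybphl in each of the 6 pairs, with a filled point for the procedure array, an open point for its control, a line joining the pair and a grey band over the range of the 6 controls. The MI 1 week array is the highest point in each panel, and the Ang II control is the upper edge of each band.

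The dimmer probe sets did not repeat the pattern. The second probe set of Myl4 had signals between 4.87 and 40.9, with 15.7 against 35.4 in the MI 1 week pair (log2 ratio -1.17) and 4.87 against 32.2 in the MI 1 month pair (-2.72). The second probe set of Sln lay at or under the floor of 4.54 on 9 of the 12 arrays and reached 11.0 at most, so it gives no usable ratio. Averaging the probe sets of a gene therefore brought the MI 1 week ratio to 0.77 for Myl4 and 1.76 for Sln, and turned the Myl4 ratios at MI 1 month (-0.82) and Ang II (-0.46) and the Sln ratio at TAC 1 day (-0.40) below 0. Myl7 and Mybphl have 1 probe set each, so no such check exists for them.

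Across the 6 pairs the median ratio of the 4 genes fell off from MI at 1 week. It was followed by MI at 1 month, with ratios between 1.08 and 1.41 and a median of 1.24, and by TAC at 1 week, with 0.79 to 1.27 and a median of 1.00. TAC at 1 month had ratios from 0.37 to 1.01 (median 0.52) and Ang II from 0.04 to 0.84 (median 0.29), while at TAC 1 day they ran from -0.84 to 0.48 around a median of -0.07, where the median of all genes tested was also -0.07. All 4 genes were higher than control in every pair but TAC 1 day, where 2 of 4 were. The 2-fold criterion was met in the higher direction by 2 of 4 at TAC 1 week, Myl7 and Sln (2.14% of all genes), by 1 at TAC 1 month, Sln (1.92%), by 2 at MI 1 month, Myl7 and Sln (2.84%), and by none at TAC 1 day (5.77%) or Ang II (0.929%). The criterion in the lower direction was met by 0 of 4 genes in every pair, where it was met by 6.3%, 0.86% and 1.26% of all genes at TAC 1 day, 1 week and 1 month, by 1.28% and 0.662% at MI 1 week and 1 month, and by 0.748% with Ang II. Position above all 6 controls was held by 4 of 4 genes at MI 1 week (25.3% of all genes), 2 at MI 1 month (19.4%), 3 at TAC 1 week (21.7%), 1 at TAC 1 month (19.4%), none at TAC 1 day (24.9%) and 4 at Ang II (13.9%). Because the genes were selected on these pairs, none of these counts is evidence about them.

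The drop from 1 week to 1 month after MI was of similar size in the 3 sarcomere genes, at 1.49 for Myl7, 1.64 for Myl4 and 1.48 for Mybphl in log2 ratio, and was 2.34 for Sln. Between MI and TAC at 1 week the ratios differed by 1.78 for Myl7, 1.84 for Myl4, 2.26 for Sln and 1.99 for Mybphl. For scale, controls of the same time differed by up to 1.01, 1.11, 0.82 and 0.69 in these genes, a range set largely by the Ang II control. Among shams of the same time the largest differences were 0.27, 0.20, 0.05 and 0.67. All of these values rest on 1 array a group, the genes were chosen for their level at MI 1 week, and no difference between MI and TAC was tested for them. Among all genes tested, Sln had the 22nd highest ratio in the MI 1 week pair, Myl7 the 53rd, Mybphl the 61st and Myl4 the 63rd.

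**Figure D2:**
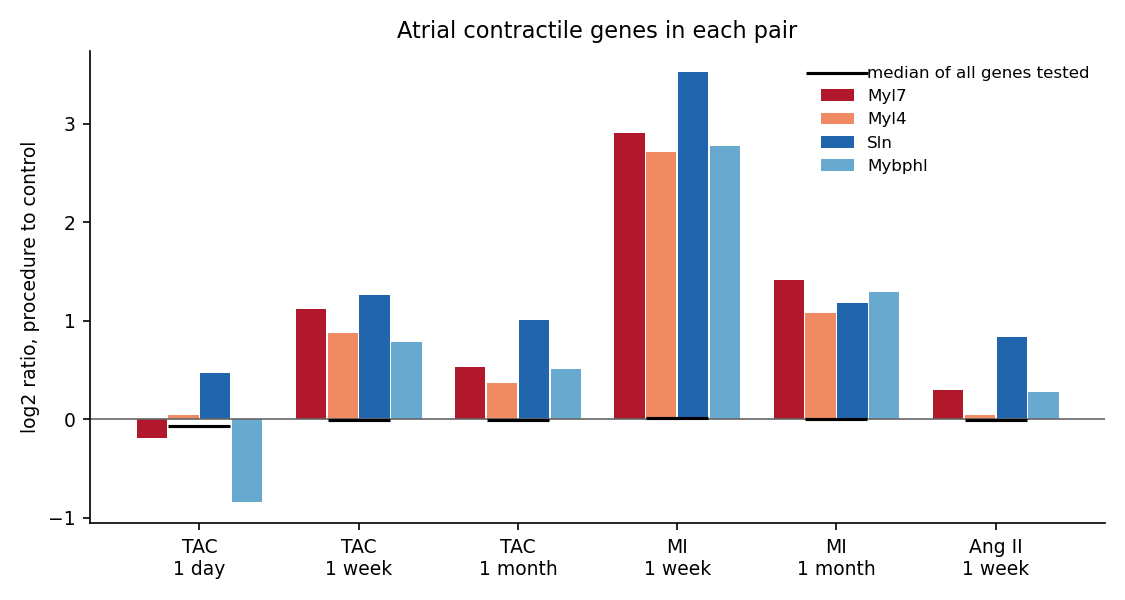
Log2 ratio of procedure to control for Myl7, Myl4, Sln and Mybphl (bars) in each of the 6 pairs, with a black line at the median of all 11624 genes tested. Bars at MI 1 week reach 2.72 to 3.52, those at MI 1 month 1.08 to 1.41, and the bars of TAC 1 day lie on both sides of 0.

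In the order of levels the MI 1 week array was first and the Ang II array second for each of the 4 genes. The step between them was 1.87 for Myl7, 1.69 for Myl4, 1.91 for Sln and 1.83 for Mybphl on the log2 scale, wider than the span of the 5 shams (0.53, 0.26, 0.31 and 0.71). Further down, most neighbours lay closer to each other than the shams did. For Myl7 the order went on through MI 1 month, TAC 1 week and the Ang II control, with steps from 0.06 to 0.12 that are within the sham span, before a step of 0.57 to TAC 1 month. For Mybphl no step after the first exceeded the sham span.

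The control array of the Ang II series stood apart from the 5 shams in all 4 genes. Its signal was 838 for Myl7, where the shams ran from 370.4 to 534, and 939 for Myl4, where they ran from 413 to 494. For Sln it was 275 against 156 to 193, and for Mybphl 49.3 against 19.1 to 31.1. Relative to the mean log2 of the shams these are 1.91-fold, 2.05-fold, 1.66-fold and 1.80-fold (log2 differences of 0.94, 1.04, 0.73 and 0.85), and the median of all genes tested differed by 0.028. This control exceeded all 5 shams in 15.9% of all genes. Nppa, the atrial natriuretic peptide, was also higher there (0.82), whereas Myh7, the slow myosin heavy chain of the fetal ventricle, differed by 0.19 and Nppb, the B-type natriuretic peptide, by -0.43.

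The pair ratios of Ang II are therefore taken against a high control. They were small for Myl7 (0.30), Myl4 (0.04) and Mybphl (0.28), and larger for Sln (0.84). Set against the mean of the 5 shams in place of its own control, the Ang II array was higher by 1.23 for Myl7, 1.08 for Myl4, 1.57 for Sln and 1.12 for Mybphl. Infusion by minipump, the series and the array cannot be told apart in this control, since each is present once. The 5′-to-3′ signal ratios of the added control transcripts dap and thr, a measure of labelling, were highest on the Ang II array (0.488 and 0.569) and its control (0.493 and 0.621), and ran from 0.195 to 0.408 and from 0.175 to 0.488 on the other arrays. Their part in the levels of the atrial genes was not tested.

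**Figure D3:**
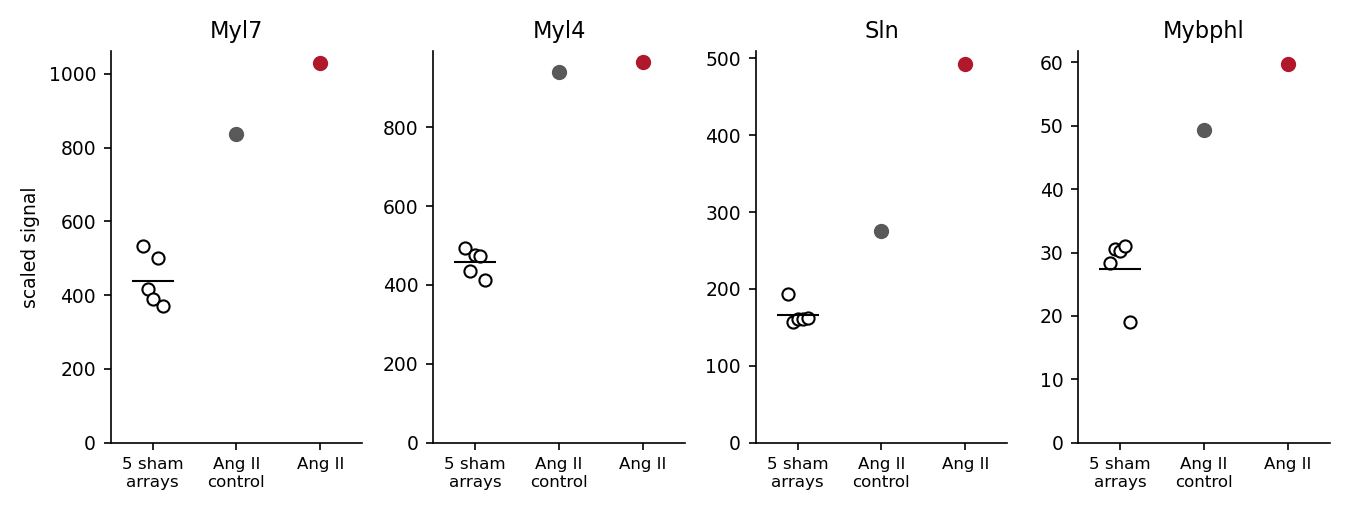
Scaled signal (linear axis from 0) of Myl7, Myl4, Sln and Mybphl on the 5 sham arrays (open points, with a line at the mean of their log2 values), on the control of the Ang II series (grey) and on the Ang II array (red). The Ang II control lies above all 5 shams in each panel.

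Over the 12 arrays the log2 levels of the 4 genes varied together. Pearson's r over the 6 possible gene pairs ran from 0.88 to 0.99 and Spearman's rho from 0.76 to 0.93. Without the MI 1 week array r was 0.67 to 0.97 over 11 arrays, and over the 6 pair ratios it was 0.92 to 0.98. The points share arrays and scaling, and the genes were selected for a shared pattern, so these values describe that selection. The genes parted most at TAC 1 day, where Sln was above its sham (0.48), the light chains near theirs (-0.18 and 0.05) and Mybphl below (-0.84).

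The genes whose log2 level followed the mean of the 4 most closely over the 12 arrays were, by a fixed ranking on r, Plxnb2 (a semaphorin receptor; r = 0.92), Fabp5 (a fatty acid-binding protein; 0.92), Tspan6 (a tetraspanin; 0.90), Cpxm1 (a carboxypeptidase-like secreted protein; 0.89) and Olfml3 (a secreted olfactomedin-like protein; 0.89). Without the MI 1 week array these were 0.76, 0.80, 0.77, 0.82 and 0.81. Plxnb2 and Fabp5 were also among the 5 closest genes to Myl7, Myl4 and Mybphl taken singly, while Sln was closest to Tmed3 (0.92), Lxn (0.91) and Sparc, a collagen-binding matrix protein (0.91). When pair ratios were ranked in place of levels, 0 of the 5 genes were the same for the mean and for each gene singly, so the ranking depends on the measure. Myl9, the regulatory light chain of smooth muscle, stood among the 5 closest to Myl7 (0.89) and Mybphl (0.89).

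Other genes known from the atria were examined to see whether they moved with the contractile genes, in the mean of the 6 pairs fitted with limma. In this fit 1267 of 11624 genes passed an adjusted p of 0.05 (10.9%), 603 higher (5.19%) and 664 lower (5.71%). With signals as deposited the numbers were 692 higher and 108 lower. Of 18 listed atrial genes outside the 4, 15 had a probe set and 13 were tested, of which 3 rose and 1 fell. The median mean ratio of the 13 was -0.02, and that of all genes tested was -0.003.

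Among the secreted atrial proteins, 3 of 4 tested rose, where 5.19% of all genes tested did. Nppa had 10229 on the MI 1 week array and 1351 on its sham, 9350 and 1863 at MI 1 month, 4876 and 2322 at TAC 1 day, 8368 and 1570 at TAC 1 week, 8301 and 1700.1 at TAC 1 month, and 5100 and 3066 with Ang II. Every procedure array of Nppa lay above all 6 controls, a position held in a single pair by 13.9% (Ang II) to 25.3% (MI 1 week) of all genes. The share of genes holding it in every pair was not counted. Its mean log2 ratio was 1.96 ± 0.25 (SE; limma adjusted p = 0.00411), and it kept its call without each pair in turn, though not with no filter on dim genes, where no gene passed (0.0677). In contrast to the 4 contractile genes, its ratios at TAC 1 week (2.41), TAC 1 month (2.29) and MI 1 month (2.33) were not far below that at MI 1 week (2.92). Its signals on these arrays, from 8301 to 10229, were high in a range whose highest value was 14795, and whether they were saturated was not tested.

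Dkk3, a secreted glycoprotein of the Dickkopf family, had 394 against 77.997 at MI 1 week, 346 against 79.2 at MI 1 month, 44.6 against 54.6 at TAC 1 day, 201 against 69.6 at TAC 1 week, 182 against 62.3 at TAC 1 month, and 97.4 against 62.1 with Ang II. The procedure arrays after 1 day all lay above the controls, and the share of all genes doing so was not counted. The mean ratio of Dkk3 was 1.32 ± 0.30 (SE; limma adjusted p = 0.0254), and its second probe set gave 1.18. Nppb rose by 0.37 ± 0.088 (SE, limma adjusted p = 0.0294), higher in 6 of 6 pairs. Its signals, up to 10361 at TAC 1 day, were also high in the signal range, and saturation was not tested. Dkk3 and Nppb were no longer called without TAC 1 week, TAC 1 month, MI 1 week or MI 1 month, with adjusted p up to 0.0829 for each, nor with no replicate block or no intensity trend. Dkk3 also lost its call when all probe sets were averaged (limma adjusted p = 0.0511). Pam, the enzyme that amidates peptides in atrial granules, had a mean ratio of 0.65 ± 0.23 (limma adjusted p = 0.0925), with 1.81 at TAC 1 week and -0.13 at MI 1 week. Bmp10, a growth factor made by atrial muscle, did not reach the limit for testing. Its signal was 43.0 at MI 1 week, 22.5 at TAC 1 month, 12.7 at MI 1 month and 8.39 with Ang II, and on the other arrays it was 6.87 or at the floor.

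Of 4 atrial channels tested, none rose and 1 fell, where 5.19% of all genes tested rose and 5.71% fell. A count over 4 genes is too small to set apart from these shares. Kcnj3, a subunit of the acetylcholine-activated potassium channel, had signals between 178 and 225 on the 6 controls, and 45.9, 142, 109, 185, 128 and 154 at TAC 1 day, TAC 1 week, TAC 1 month, MI 1 week, MI 1 month and Ang II. It was lower than control in 6 of 6 pairs and fell by 0.79 ± 0.21 (SE; limma adjusted p = 0.0434). This call was lost when any single pair other than TAC 1 day was left out (limma adjusted p up to 0.103). It was also lost with signals as deposited (0.1), with the mean of all probe sets (0.0582), and with no replicate block or no intensity trend. Its partner Kcnj5 had a mean ratio of -0.59 (adjusted p = 0.0516), the atrial potassium channel Kcna5 one of -0.02 that turned positive with signals as deposited (0.08), and the calcium channel Cacna1d one of 0.28. Gja5, the connexin of atria and conduction tissue, was under the floor on all 12 arrays, and no probe set was listed for the muscarinic receptor Chrm2.

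Transcription factors of atrial identity did not pass the test in 4 of 4 cases, where 10.9% of all genes tested passed. The count is too small to set apart from that share. The mean ratios were -0.29 for Nr2f1, 0.10 for Nr2f2, -0.30 for Tbx5 and -0.43 for Hey1, with limma adjusted p from 0.0881 to 0.631. At MI 1 week, where the contractile genes were highest, their ratios were 0.03, 0.30, -0.48 and -0.23. The lipid transfer gene Stard10 had a mean ratio of -0.20 and did not pass. No gene of the 11624 differed between TAC and MI in the limma contrast (0%; 534 at an unadjusted p under 0.05), so no difference between these procedures can be claimed for any listed gene.

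**Figure D4:**
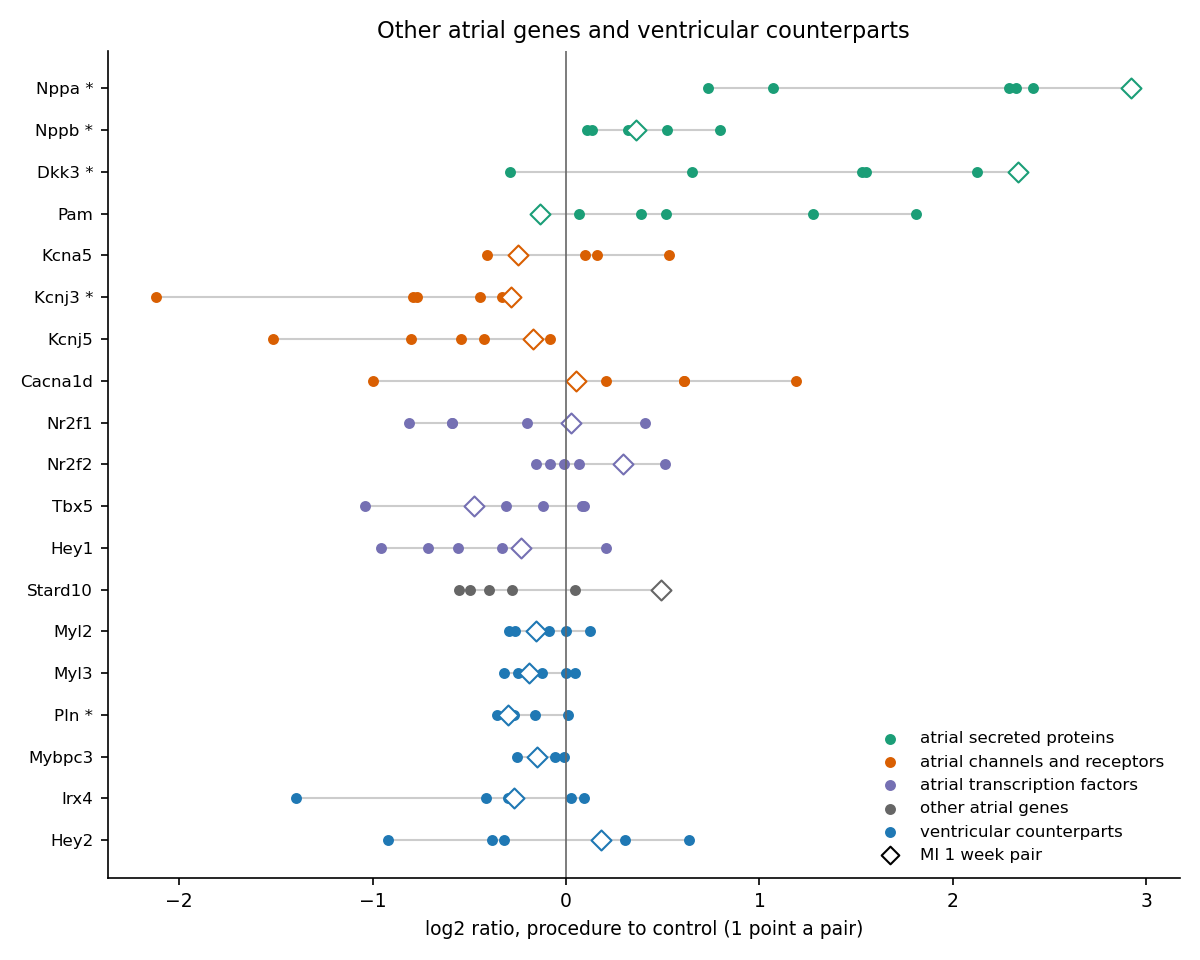
Log2 ratios of procedure to control, 1 point for each of the 6 pairs and an open diamond for MI 1 week, for the 13 other atrial genes tested and the 6 ventricular counterparts. An asterisk marks genes past an adjusted p of 0.05 in the mean of the 6 pairs. Nppa and Dkk3 lie farthest to the right, and Myl2, Myl3, Pln and Mybpc3 lie near 0.

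The counterparts of the 4 genes in the ventricle, Myl2, Myl3, Pln and Mybpc3, moved little. In the list of ventricular counterparts, which also holds the transcription factors Irx4 and Hey2, 1 of 6 tested passed, where 10.9% of all genes tested did. Myl2, the ventricular regulatory light chain, had 12060 on the MI 1 week array and 13408 on its sham, and its 6 controls ran from 11920 to 13473. Its mean ratio was -0.11 ± 0.065 (SE; limma adjusted p = 0.282), and that of Myl3, the ventricular essential light chain, was -0.14 ± 0.062 (adjusted p = 0.165). After quantile normalization both turned slightly positive (0.02 and 0.008). Mybpc3 had -0.13 ± 0.054 (adjusted p = 0.149). Pln, the SERCA inhibitor of the ventricle, was the gene of the 6 that passed, with 9653 against 11901 at MI 1 week and a mean that fell by 0.23 ± 0.061 (SE; limma adjusted p = 0.0417). The Pln call was lost with signals as deposited (adjusted p = 0.227), after quantile normalization, with no replicate block or no intensity trend, and without each pair other than Ang II (up to 0.116). Myl2, Myl3 and Pln were near the top of the signal range, whose highest value was 14795, and whether they were saturated was not tested. The ventricular transcription factors Irx4 (-0.38) and Hey2 (-0.08, and 0.01 with signals as deposited) did not pass. Their ratios varied more between pairs. Irx4 ran from -1.40 at TAC 1 day to 0.09 at MI 1 month, and Hey2 from -0.92 with Ang II to 0.64 at MI 1 month.

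In the family of myosin light chains and their kinases, 1 of 12 tested genes rose and 0 fell, where 10.9% of all genes tested passed in either direction. The gene was Myl1, the essential light chain of fast skeletal muscle, by 0.42 ± 0.082 (SE; limma adjusted p = 0.0158). Myl1 had ratios between 0.17 and 0.72 in the 6 pairs, and was no longer called without TAC 1 week or TAC 1 month (up to 0.0571) or with no intensity trend. Its ratio at MI 1 week was 0.23, against 2.90 for Myl7. Myl9 had 1906 against 820 at MI 1 week and a mean ratio of 0.52 ± 0.17 (adjusted p = 0.0767). The median mean ratio of the family was 0.16. In the myosin-binding protein family 0 of 2 tested passed, with Mybpc2 at 0.38, and Mybph was under the floor on all 12 arrays.

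SERCA and its regulators, the system in which sarcolipin acts, had 0 of 8 tested genes higher and 2 lower, with a median mean ratio of -0.19. Among all genes tested, 5.19% were higher and 5.71% lower. Besides Pln, Hrc, a calcium-binding protein of the sarcoplasmic reticulum, had signals from 4214 to 4581 on the controls and from 2721 to 3833 on the procedure arrays. Hrc fell by 0.57 ± 0.080 (SE; limma adjusted p = 0.00615) and kept its call without each pair in turn. The pump of heart muscle itself, Atp2a2, had a mean ratio of -0.15 (adjusted p = 0.148), and the calcium store protein Casq2 had -0.18 (adjusted p = 0.109). Sln, which was not tested, was higher in all 6 pairs. Atp2a2 was lower in all 6, with ratios between -0.40 and -0.001, and did not pass. With a mean signal of 10792 Atp2a2 was high in the signal range, and saturation was not tested.

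Of the fetal isoforms of the sarcomere, 1 of 4 tested rose, where 5.19% of all genes tested did. Myh7 had 7591 against 562 at MI 1 week, 2317 against 839 at MI 1 month, 2010 against 1354 at TAC 1 day, 3814 against 817 at TAC 1 week, 3256 against 1086 at TAC 1 month, and 1904 against 1021 with Ang II. Its mean ratio was 1.75 ± 0.33 (SE; limma adjusted p = 0.0148), a call lost without TAC 1 week (0.0545), with no intensity trend (0.061) and with no filter on dim genes (0.097). As with the 4 atrial genes, its ratio at MI 1 week (3.76) was far above that at MI 1 month (1.46). Acta1, skeletal actin, had a mean ratio of 0.06 and Acta2, smooth muscle actin, one of -0.23, and neither passed. Acta1, with a mean signal of 10202, was high in the signal range, and saturation was not tested. Over the 12 arrays the level of Myh7 had r = 0.79 with the mean of the 4 atrial genes, Dkk3 0.75 and Nppa 0.71, and without the MI 1 week array 0.61, 0.61 and 0.74.

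Markers of other cells also differed from the controls on the MI 1 week array, and in part on the other procedure arrays. In the mean of the pairs, 5.19% of all genes tested rose and 5.71% fell. The sums below add signals of different probe sets, so the brightest markers weigh most. The summed signal of 7 fibroblast markers was 31946 on the MI 1 week array and 9831 to 12984 on the controls, and 5 of 7 rose in the mean of the pairs. Over the 6 procedure arrays this sum ran from 13020 to 31946, so each of them lay above the controls. That of 7 macrophage markers was 9522 at MI 1 week against 2663 to 4327, with 3 of 7 higher, and ran from 3152 to 9522 over the procedure arrays. Cardiomyocyte markers summed to 67836 at MI 1 week against 75306 to 82277, with 1 of 8 lower (Ryr2, the calcium release channel) and 0 higher. Over the procedure arrays the cardiomyocyte sum ran from 63835 to 79689, so MI 1 week was not the lowest. In tissue RNA, fewer cells of a type and less RNA per cell cannot be told apart. The part of these shifts in the levels of the atrial genes was not tested.

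Cells of neighbouring tissues were looked for in the same way, with the same shares of all genes tested (5.19% higher, 5.71% lower) for comparison. The 9 skeletal muscle markers summed to 177 on the MI 1 week array, to 80.1 to 164 on the controls and to 115 to 220 over the procedure arrays. Of these markers, 7 were too dim to be tested and 0 of 2 passed. The largest contributors at MI 1 week were Pvalb at 58.3, Mylpf at 34.2 and Tnnt3 at 30.5. Of 4 conduction markers tested 1 fell, Tbx3, by 0.63 (limma adjusted p = 0.0423; up to 0.121 over the alternatives), and their sum was 121 at MI 1 week against 122 to 171. The 8 mesothelial and epicardial markers summed to 369 at MI 1 week against 105 to 215, with 1 of 4 tested higher, Krt18, a keratin. Smooth muscle markers summed to 4620 against 4121 to 5531, with 2 of 5 higher, Cnn1 and Tagln. Over the procedure arrays these sums were 103 to 138 (conduction), 173 to 369 (mesothelial and epicardial) and 3833 to 5268 (smooth muscle). Endothelial (0 of 5), adipocyte (0 of 1) and endocardial markers (1 of 4, Plvap, higher) make up the rest. The calls of Krt18, Tagln, Plvap, Pdgfra, Lum, Mrc1, Lyz2, Fcgr1 and Ryr2 were each lost without at least 1 pair (limma adjusted p up to 0.123). Of the 13 other atrial genes tested, the median ratio at MI 1 week was 0.03, in a range from -0.48 (Tbx5) to 2.92 (Nppa), with Dkk3 at 2.34. Among those too dim to be tested, Bmp10 had 43.0 at MI 1 week with its sham at the floor, and Gja5 was under the floor. The summed signal of the tested and dim atrial genes was 19954 at MI 1 week against 9077 to 10766 on the controls. Over the 6 procedure arrays it ran from 13194 to 19954, so each of them lay above the controls. At MI 1 week the sum was made up largely of Nppa (10229) and Nppb (7868). Whether atrial tissue contributed to any array was not tested.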

How the data were processed

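Left ventricular RNA was measured on 12 1-colour Affymetrix arrays. The authors deposited linear intensity values, 1 per probe set on each array, made with GCOS per the submitters' processing notes. The signal method is not given in the sources used here. Each array was scaled to a common 2% trimmed mean (before scaling 105 to 131; factors 0.873 to 1.09), signals under the 20th percentile (4.54) were set to that value, and levels were expressed as log2. Array number limits the precision.

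Of 45101 probe sets, 34958 have 1 gene symbol in the platform annotation, 932 several, and 9211 are not listed. Entrez identifiers of 34754 were found in the RefSeq gene table and 0 symbols changed. Genes were tested if their mean exceeded the 40th percentile over named probe sets (18.1). Procedure and control were paired by series and time, as the sample titles give them; the study's description places a 1 day harvest in MI, the labels in TAC, and the labels were used. Fits used limma 3.58.1 in R 4.3.3, with the pair as block, an intensity trend and Benjamini-Hochberg adjustment at 0.05 (5 residual degrees of freedom), and were tested on simulated data. SE is that of the fit. The number of pairs is 6, and the residual holds differences between procedures as well as noise.

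Genes named are the 4 atrial genes, all measured genes of the atrial, ventricular and family lists or those past the threshold, and the 5 most similar genes by r. The genes and lists were chosen with earlier results of these data known. Alternatives were deposited signals, quantile normalization, other floors, the mean of all probe sets, no block, no trend, no filter and each pair left out.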

Additional observations from a re-analysis of the deposited data

Results flagged for a closer look

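The control array of the Ang II series was far from the other controls in 2 of the 4 atrial genes. For Myl4 its gap to the nearest of the 6 controls was 0.782 of their whole range, and for Sln it was 0.626, both above the limit of 0.625 for 6 values. For Myl7 (0.551) and Mybphl (0.485) it was also the highest control but within the limit. The 6 controls belong to 6 different groups, and chance passes this limit in about 1 of 20 groups. That rate does not hold for these 4 genes, which were picked from the same arrays and vary together, so the gaps are a description. Sln lay just above the limit. The share of all genes past the limit was not counted, and 15.9% of them had the Ang II control above all 5 shams.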

How the results depend on the processing

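Of 72 recomputed member ratios (the MI 1 week ratio and the mean of the 6 pairs of Myl7, Myl4, Sln and Mybphl), all 72 stayed positive and 67 moved by less than the SD of the 6 controls. That SD, which includes the high Ang II control, was 0.43, 0.43, 0.32 and 0.44 in log2. Over the 5 shams it was 0.23, 0.11, 0.12 and 0.30. Many of the 72 could hardly move, since the floors lie under nearly all of these signals and Myl7 and Mybphl have 1 probe set. The count is therefore no measure of stability. When all probe sets of a gene were averaged, the MI 1 week ratio was 0.77 for Myl4 and 1.76 for Sln, and the mean of the pairs 0.14 and 0.64; the dim second probe sets enter there. Leaving out each pair gave means of 0.64 to 1.25 for Myl7, 0.48 to 1.02 for Myl4, 0.95 to 1.56 for Sln and 0.41 to 1.13 for Mybphl, lowest without MI 1 week. Chosen after seeing the data, the mean of the 6 controls in place of the sham gave 2.94, 2.59, 3.36 and 2.82 for MI 1 week, and the mean of the 5 shams gave 1.17, 1.03, 1.504 and 0.94 for the mean of the pairs. The count of genes past the threshold, 1267, was 800 with signals as deposited, 701 when all probe sets were averaged, 484 with no replicate block for the pairing, 244 with no intensity trend and 0 with no filter on dim genes (3708 at an unadjusted p under 0.05 in limma). Without single pairs it ran from 260 to 1506. The count of other atrial genes, 4, was 2 when all probe sets were averaged (Nppa and Nppb), 1 with no replicate block and with no trend (Nppa), 0 with no filter, and 1 to 5 without single pairs. The count of ventricular counterparts, 1, was 0 with signals as deposited, after quantile normalization, with no replicate block, with no trend and with no filter, and 0 to 1 without single pairs. The cause was not tested. With signals as deposited the median ratio of all genes was -0.23, 0.21, 0.31 and 0.17 at TAC 1 day, TAC 1 week, TAC 1 month and MI 1 week, against -0.067, -0.008, -0.004 and 0.019 after scaling. Dim signals (Mybphl, Bmp10) and single arrays limit precision.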
